A study of Arabidopsis thaliana with 48 samples.

Results

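In the hot3-2 dcl2 dcl4 mutant of Arabidopsis thaliana, here called the combined mutant, 3′ ends of small-subunit rRNA (18S rRNA) were compared between the nonpolysome (NP) and the polysome (P) fractions of sucrose gradients. The 4 nonpolysome and 4 polysome libraries of this genotype were chosen by their titles, 8 of the 48 libraries of the series, which covers 4 genotypes in 3 fractions with 4 libraries in each group. All libraries came from 18-day-old seedlings in the Col-0 background. The combined mutant carries hot3-2, a T-DNA insertion allele of HOT3, together with dcl2-1 and dcl4-2, and was made by crossing. The other genotypes used below are hot3-2, dcl2 dcl4 (dcl2-1 dcl4-2) and WT. Nonpolysome RNA was taken from sucrose gradient fractions 1 to 4 and polysome RNA from fractions 8 to 12, so the fractions in between were in neither pool. All lysates were made in a buffer with cycloheximide and chloramphenicol, which arrest cytosolic and organellar ribosomes, and the total extract used below is the lysate before the gradient. Each mutant is represented by 1 allele combination, and the assay measures no mRNA, so the genotype labels could not be checked from HOT3, DCL2 or DCL4 transcripts.

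HOT3 encodes eIF5B1, a GTPase that helps the large ribosomal subunit join the small one at the start of translation. The Dicer-like proteins DCL2 and DCL4 cut double-stranded RNA into small interfering RNAs. The 18S rRNA of the small subunit is cut out of a long precursor. Its last steps take place at the 3′ side, where the internal transcribed spacer 1 (ITS1) is shortened by cleavage and by trimming from the 3′ end until the mature end, the D site, is reached. In yeast the last cut at the D site is made by the endonuclease Nob1 in the cytoplasm, and eIF5B takes part in a joining test of the new small subunit that precedes it. Nucleotides added to the 3′ end without a template, mostly by poly(A) polymerases and uridylyltransferases, are known to mark rRNA intermediates for trimming or decay by the exosome.

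In 18S-ENDseq, rRNA is ligated into circles, reverse-transcribed across the junction from a primer inside 18S rRNA, amplified and sequenced, so that each read gives one 3′ end and the length of any nontemplated tail. The counts cover 30 end positions by 11 tail classes, from no tail to 10 nt. Positions are counted from the D site, the most frequent untailed end in all 48 libraries, and run from -5 inside mature 18S rRNA to +24 in ITS1. The window is shown first because the results turn on where in it an end lies. It was read from the TAIR10.1 assembly of RefSeq at chr2:5508-5537 on the plus strand, across the 3′ end of the 18S rRNA gene AT2G01010, and is identical at chr3:14199479-14199508 across the end of AT3G41768. Capitals mark the A1 cluster of ends (+8 to +13) and the A2 cluster (+21 and +22). The RNA ends that the comparison singled out are given below it, from -5 to the end named, with the ITS1 part in capitals.
window from -5 to +24: tcattgtcgatacCTGTCCaaaacagAAcg
end at +2: tcattgTC
end at +8: tcattgTCGATACC
end at +9: tcattgTCGATACCT
end at +12: tcattgTCGATACCTGTC
end at +17: tcattgTCGATACCTGTCCAAAA
end at +22: tcattgTCGATACCTGTCCAAAACAGAA
The sequence sets a limit on what can be counted as a tail. Templated A bases follow +13 and lie at +14 to +17, and others follow -4, +3, +5, +18 and +20. An A added to an end just before such a base is counted as a longer untailed end. Untailed ends at -3, +4, +6, +14 to +17, +19, +21 and +22 can therefore include tailed shorter ones. A U added before a templated T would be counted in the same way, at -2, -1, +1, +5, +9 and +11. A tail of A that is longer than the templated run would be counted as a shorter tail at a later end. The bases of the tails are not in the files.

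Every count was divided by the untailed D-site count of the same library and is given as a percentage of D. A higher percentage can therefore come from more of an end or from fewer D-site molecules, and the counts cannot tell these apart. The 8 libraries held 1861418 to 3822382 reads. Untailed D-site reads made up 72.1% to 80.01% of the reads in nonpolysome libraries and 90.9% to 92.2% in polysome libraries. Untailed reads from +1 to +22, called pre-18S, numbered 232883 to 364808 in nonpolysome and 52422 to 87757 in polysome libraries, and the Wilson 95% interval of their share had a half-width of 0.309% to 0.846% of the share, which covers counting error only. Libraries of 1 group differed by more than counting error in each of the 12 pairs, with chi-square per degree of freedom from 12.3 to 296. The replicates are described as biological, but not whether each came from a separate sowing or batch, so the p-values measure the spread between these samples.

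Almost the whole profile was higher in the nonpolysome fraction. Of the 249 rows (an end position with a tail class) with enough counts to test, 235 were called higher in nonpolysome, or 94.4%, and 0 were called lower, or 0.00% (edgeR's quasi-likelihood test, Benjamini-Hochberg adjusted p under 0.05). A further 80 rows had too few counts and held 2201 nonpolysome and 708 polysome reads in all. The median log2 fold change of nonpolysome over polysome was 2.83. All 4 nonpolysome libraries lay above all 4 polysome libraries in 226 rows, or 90.8%. Among untailed rows 28 of 29 were called and separated in this way, 96.6% for both, and among tailed rows 207 of 220 were called (94.1%) and 198 separated (90.0%). In 35 of the called rows no polysome library reached 10 counts, so these rows entered the test only through the nonpolysome side. The direction is relative to the D site, which also makes up most of all counted reads. With all counted reads as library size the median log2 fold change was 2.54. TMM was computed over the rows without the D site, which centres them on each other. It therefore cannot show a shift shared by most rows. Under TMM the median log2 fold change moved by -2.72 to 0.11, and 83 rows were called higher and 87 lower. With such a shared background, the question for each end is how far it departed from the others, and the fold changes were not uniform.

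**Figure D1:**
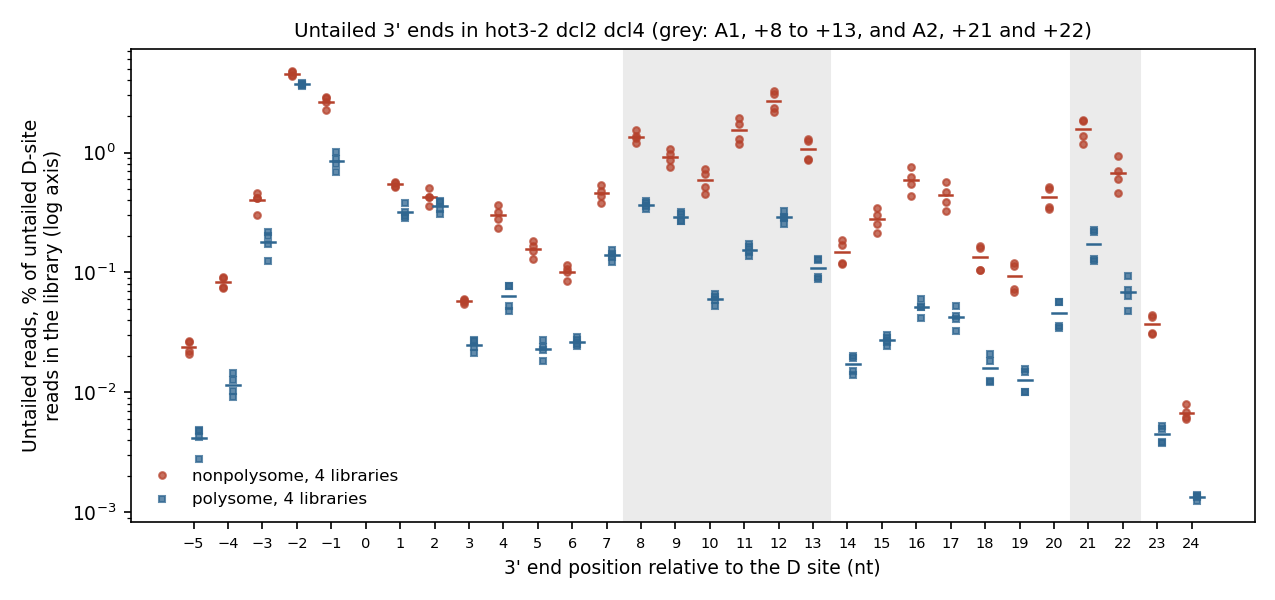
Untailed reads at each 3′ end position as a percentage of untailed D-site reads (log axis), in 4 nonpolysome (red) and 4 polysome (blue) libraries of hot3-2 dcl2 dcl4, with short lines at the means. The fractions nearly meet at -2 and +2 and stand furthest apart from +10 to +22.

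Among untailed ITS1 ends, those next to the D site differed least. At +2, 2 nt beyond the D site, untailed ends made up 0.506%, 0.423%, 0.361% and 0.426% of D in nonpolysome libraries 1 to 4, against 0.338%, 0.394%, 0.307% and 0.388% in polysome libraries 1 to 4. The libraries overlapped, and this was the 1 untailed position that was not called (log2 0.26 ± 0.16 SE, edgeR adjusted p = 0.127). At +1 the values were 0.558%, 0.519%, 0.523% and 0.573% in nonpolysome, against 0.294%, 0.319%, 0.284% and 0.381% in polysome. The groups at +1 did not overlap, and the change was called (log2 0.77 ± 0.15 SE, adjusted p = 3.2e-04). Together the ends at +1 and +2 were 0.972% ± 0.0774 of D in nonpolysome and 0.676% ± 0.0804 in polysome (SD, n = 4 each; log2 0.53, exact two-sided permutation p = 0.0286 and Benjamini-Hochberg 0.0286 over 7 ratios, the smallest that 4 against 4 libraries allow). With all counted reads as the denominator, in place of D-site reads, the log2 difference was 0.26 and no longer passed (exact permutation p = 0.0857). As a share of pre-18S ends, +1 and +2 made up 6.83% ± 1.31 in nonpolysome and 25.3% ± 1.36 in polysome, with no overlap (exact permutation p = 0.0286). After adjustment over the 8 shares and lengths tested, this difference and the others of that family stood at 0.0571 or above.

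Ends inside mature 18S rRNA, 1 to 5 nt short of the D site, followed an uneven pattern of their own. Their sum was 7.72% ± 0.562 of D in nonpolysome and 4.74% ± 0.252 in polysome (log2 0.70, exact permutation p = 0.0286, Benjamini-Hochberg 0.0286). Most of these reads ended at -2, where nonpolysome libraries 1 to 4 had 4.44%, 4.34%, 4.66% and 4.81% and polysome libraries 1 to 4 had 3.67%, 3.61%, 3.78% and 3.75%. As a percentage of D the difference at -2 was small but larger than the spread between libraries (log2 0.30 ± 0.10 SE, edgeR adjusted p = 0.0119). It rests on the D-site denominator: with all counted reads as library size, the median log2 fold change of the rows moved by -0.28, nearly as much as this difference. The position next to it, -1, differed far more, with 2.62%, 2.25%, 2.85% and 2.90% in nonpolysome against 0.804%, 0.688%, 1.00% and 0.890% in polysome (log2 1.65). The rare ends at -5 and -4 came to 0.107% ± 0.0116 in nonpolysome and 0.0158% ± 0.00323 in polysome, a log2 difference of 2.77. In the total extract these 2 ends came to 0.00722% ± 0.00115, below both gradient fractions, whereas at 25 of the 29 untailed positions the total extract lay between them.

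Beyond the D-adjacent ends the fold change climbed and then fell back before A1. The log2 fold change of untailed ends was 1.21 at +3, 2.24 at +4 and 2.78 at +5, and 1.95 at +6 and 1.73 at +7. At +5, nonpolysome libraries 1 to 4 held 0.167%, 0.130%, 0.184% and 0.151% of D, against 0.0184%, 0.0240%, 0.0225% and 0.0272% in polysome. Each nonpolysome library at +5 was above every polysome library.

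The A1 cluster, the main group of ITS1 ends, was 8.19% ± 1.50 of D in nonpolysome and 1.27% ± 0.108 in polysome (log2 2.67, exact permutation p = 0.0286, Benjamini-Hochberg 0.0286), and its members were unequal. At +8, the end nearest to 18S rRNA, the values were 1.39%, 1.21%, 1.53% and 1.32% in nonpolysome libraries 1 to 4 and 0.339%, 0.357%, 0.382% and 0.391% in polysome libraries (log2 1.89 ± 0.14 SE, adjusted p = 1.8e-07). At +9 the log2 fold change was 1.66 ± 0.15 SE. One base further, at +10, it was 3.30 ± 0.20 SE, and it stayed between 3.23 and 3.31 through +13. At +12, the tallest ITS1 end of the nonpolysome fraction, the libraries held 3.10%, 2.17%, 3.23% and 2.33% of D, against 0.253%, 0.292%, 0.284% and 0.325% in polysome (log2 3.23 ± 0.17 SE, adjusted p = 5.1e-08). The step between +9 and +10 gave the cluster a different outline in each fraction. In nonpolysome, +12 was its commonest end with 33.0% ± 0.771 of untailed A1 reads and +8 had 16.8% ± 1.61. In polysome, +8 was the commonest with 28.95% ± 0.923 and +12 had 22.7% ± 0.653. The ends at +8 and +9 together took 25.8%, 29.6%, 26.6% and 30.2% of A1 in nonpolysome libraries 1 to 4 and 53.5%, 49.7%, 53.5% and 50.5% in polysome libraries. These shares do not depend on the D-site count, and the groups were far apart (difference -23.8 percentage points, exact permutation p = 0.0286). This share and the 10 others computed for single zones were chosen after their values were seen, and the adjusted value over the 11 is 0.0629.

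From +10 to +22 the nonpolysome excess was nearly level. All 13 untailed positions of that stretch were called, with log2 fold changes from 2.88 to 3.53. The highest were at +16 and +17, in the run of A bases that follows A1. At +16 nonpolysome libraries 1 to 4 had 0.624%, 0.436%, 0.763% and 0.547% of D and polysome libraries 0.0416%, 0.0517%, 0.0516% and 0.0598% (log2 3.53 ± 0.21 SE). The others among the 6 with the highest fold change were +17 (3.38), +15 (3.35), +11 (3.31), +10 (3.30) and +13 (3.30), which do not differ beyond their standard errors of 0.19 to 0.23. The A2 cluster, at the A2 cleavage site of ITS1, was 2.57%, 1.83%, 2.75% and 1.78% of D in nonpolysome libraries 1 to 4 and 0.177%, 0.298%, 0.188% and 0.312% in polysome libraries. Here libraries 1 and 3 were the high ones in nonpolysome and the low ones in polysome. The log2 difference was 3.22 (exact permutation p = 0.0286, Benjamini-Hochberg 0.0286), 3.87 in replicates 1 and 3 alone and 2.57 in replicates 2 and 4 alone. The ratio of A1 to A2 was 3.69 ± 0.238 in nonpolysome and 5.50 ± 1.34 in polysome (log2 -0.54, exact permutation p = 0.0286, adjusted 0.0571). Replicates 1 and 3 gave -0.90 for that difference, and replicates 2 and 4 gave -0.18. Past A2 the ends thinned out, to 0.0373% ± 0.00702 in nonpolysome and 0.00448% ± 7.4e-04 in polysome at +23 (log2 3.06).

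Tailed ends of pre-18S were 8.08%, 5.40%, 12.4% and 8.46% of D in nonpolysome libraries 1 to 4 and 1.00%, 1.05%, 1.39% and 1.48% in polysome libraries (log2 2.76, exact permutation p = 0.0286, Benjamini-Hochberg 0.0286). As a share of all pre-18S reads, tailed reads were 36.4% ± 5.02 in nonpolysome and 31.3% ± 3.53 in polysome, and these overlapped (exact permutation p = 0.171). The share depended on where the end lay. How far the templated A bases set the counted shares at each stretch was not tested. At +7 to +9, close to 18S rRNA, 22.4%, 21.9%, 23.5% and 23.4% of reads were tailed in nonpolysome libraries 1 to 4, against 37.1%, 34.7%, 38.5% and 37.3% in polysome libraries (exact permutation p = 0.0286, adjusted over the 11 shares 0.0629). The polysome libraries were thus the more tailed ones there, and at +7 alone the shares were 37.7% ± 0.951 in nonpolysome and 54.9% ± 1.43 in polysome. From +10 to +13 the shares were 29.6% ± 1.50 in nonpolysome and 33.7% ± 1.56 in polysome, again without overlap. From +14 to +20 they were 47.1% ± 4.54 and 42.8% ± 5.25 in the same order, and at +22 they were 81.4% ± 3.93 in nonpolysome and 77.3% ± 4.87 in polysome. For these last stretches the fractions overlapped (exact permutation p = 0.286 and p = 0.2), and replicates 3 and 4 had the higher share in both fractions. For the whole A1 cluster the tailed share was 26.9% ± 1.28 in nonpolysome and 32.4% ± 1.63 in polysome (exact permutation p = 0.0286, adjusted 0.0571). With tails of 2 nt or more alone, the A1 difference was -1.10 percentage points and did not pass (exact permutation p = 0.371).

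**Figure D2:**
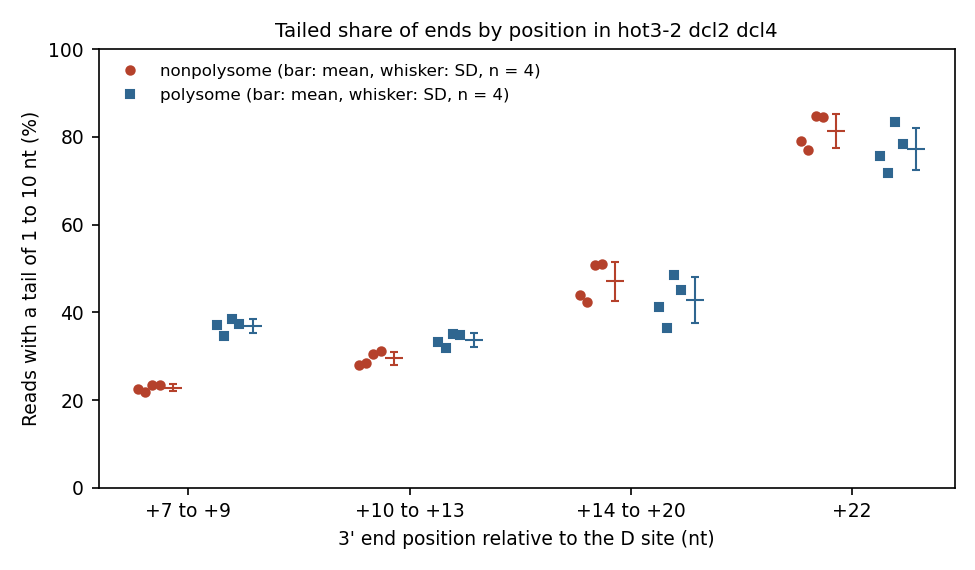
Percentage of reads with a tail of 1 to 10 nt among all reads ending at +7 to +9, +10 to +13, +14 to +20 and +22, in 4 nonpolysome (red) and 4 polysome (blue) libraries, with the mean and SD beside the points. The polysome libraries lie above all nonpolysome libraries at +7 to +9 and +10 to +13 and overlap them at the later stretches.

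Row by row, tailed rows also stepped up between +9 and +10, although the ranges on the 2 sides overlapped. The 29 tested rows with tails at +7 to +9 had a median log2 fold change of 0.98 (0.43 to 2.29), and 26 of them were called. The 112 tested tailed rows from +10 to +22 had a median of 3.50 (1.25 to 6.04), and all were called. In 17 of these 112 no polysome library reached 10 counts, so they entered the test only through the nonpolysome side. No row at +7 to +9 or at +10 to +13 was of that kind. The median was 2.62 at +10 to +13 (1.25 to 3.52) and 3.56 at +14 to +20, where 13 of 57 tested rows were of that kind. These medians weigh rare and common tail classes alike. In summed tailed reads the rise was smaller, from log2 2.97 ± 0.379 at +10 to +13 to 3.55 ± 0.445 at +14 to +20 (SD over same-numbered pairs). Tails of 1 nt show the step at +10. At +9 they were 0.123% ± 0.0193 of D in nonpolysome and 0.0727% ± 0.00953 in polysome (log2 0.76 ± 0.19 SE), and at +8 the log2 fold change was 0.84 ± 0.16 SE. At +10 it was 2.48, at +11 2.78, at +12 3.09 and at +13 2.34. At +12, the commonest A1 end, tails of 1 nt were 0.398% ± 0.0770 of D in nonpolysome and 0.0466% ± 0.00710 in polysome. At +13 such tails were rare in both fractions, 0.00668% ± 0.00110 in nonpolysome and 0.00132% ± 3.6e-04 in polysome, and +13 is one of the positions that a templated A follows.

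**Figure D3:**
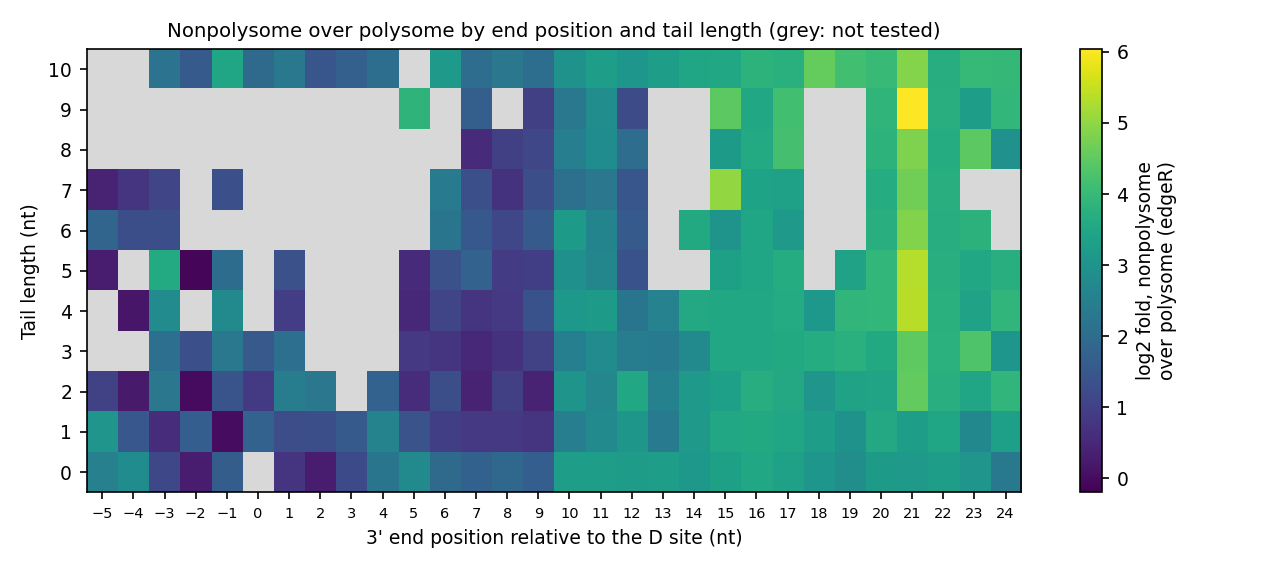
Log2 fold change of nonpolysome over polysome (colour) for each end position (horizontal, nt from the D site) and tail length (vertical, 0 to 10 nt), from edgeR scaled to D-site counts, with untested rows in grey. Tailed rows at +7 to +9 are low (median 0.98), those from +14 to +22 are high, and tails at +21 hold 7 of the 8 highest values.

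Counted tails were most frequent at the A2 end at +22. Tails of 1 nt there were 0.479% ± 0.181 of D in nonpolysome and 0.0424% ± 0.0134 in polysome (log2 3.49 ± 0.32 SE), and all 10 tail classes at +22 had log2 fold changes from 3.49 to 3.77. Tailed reads at +22 made up 10.8%, 9.0%, 17.7% and 15.5% of all reads from +1 to +22 in nonpolysome libraries 1 to 4, against 4.42%, 4.75%, 8.15% and 7.42% in polysome libraries. Libraries 3 and 4 were the high ones in both fractions, and the groups did not overlap (exact permutation p = 0.0286, adjusted over the 11 shares 0.0629). The highest fold changes of all rows were tails at +21, the A base before it: of the 8 tailed rows with the largest change, 7 were at +21, with tails of 4 to 10 nt. A templated A follows +21, so a tail of A added there would be counted at +22. If template and tail were split exactly, tails counted at +21 begin with a base other than A. Whether they do was not tested, and the same limit holds for the tails at +21 named below. Tails of 4 to 10 nt at +21 are rare. Tails of 4 nt at +21 were 0.00948%, 0.00226%, 0.0197% and 0.00850% of D in nonpolysome libraries 1 to 4 and 1.3e-04%, 1.1e-04%, 3.4e-04% and 3.8e-04% in polysome libraries, from 730 and 25 reads in the same order (log2 5.36 ± 0.68 SE). Tails of 9 nt at +21 rested on 115 nonpolysome and 2 polysome reads, a ratio of 69.9 with an exact 95% counting interval of 18.9 to 584. The 1 other row among the 8, tails of 7 nt at +15, rested on 114 and 4 reads. In that row and in tails of 7 to 10 nt at +21, no polysome library reached 10 counts. These rows entered the test only through the nonpolysome side.

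The lengths of the tails depended on the end more than on the fraction. At +12, tails of 1 and 2 nt were 41.5% ± 0.846 and 52.8% ± 0.723 of tailed reads in nonpolysome, against 45.7% ± 2.82 and 43.2% ± 0.553 in polysome, and longer ones were rare. At +17, at the end of the run of A bases, tails of 1 to 4 nt had 19.9% to 23.4% each in nonpolysome and 18.9% to 24.9% each in polysome. Tails of 5 nt then dropped to 1.82% in nonpolysome and 1.72% in polysome, which is a sharp edge for a tail length and was seen in both fractions. At +22 the classes fell off evenly, from 15.7% ± 2.12 with 1 nt to 4.34% ± 0.425 with 9 nt in nonpolysome, and 17.7% ± 2.50 and 4.25% ± 0.426 in polysome. Mean tail length was 4.49 ± 0.198 nt in nonpolysome and 4.43 ± 0.256 nt in polysome for A2 (difference 0.06 nt, exact permutation p = 0.686) and 2.62 ± 0.102 nt and 2.39 ± 0.103 nt for A1 in the same order (exact permutation p = 0.0571). The class of 10 nt was higher than that of 9 nt at +9, +12, +17 and +22. Whether it also holds longer tails is not stated. Without it the A1 difference was 0.15 nt (exact permutation p = 0.0286). The authors' aligner sets where template ends and tail begins, and the part this plays in these lengths was not tested.

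**Figure D4:**
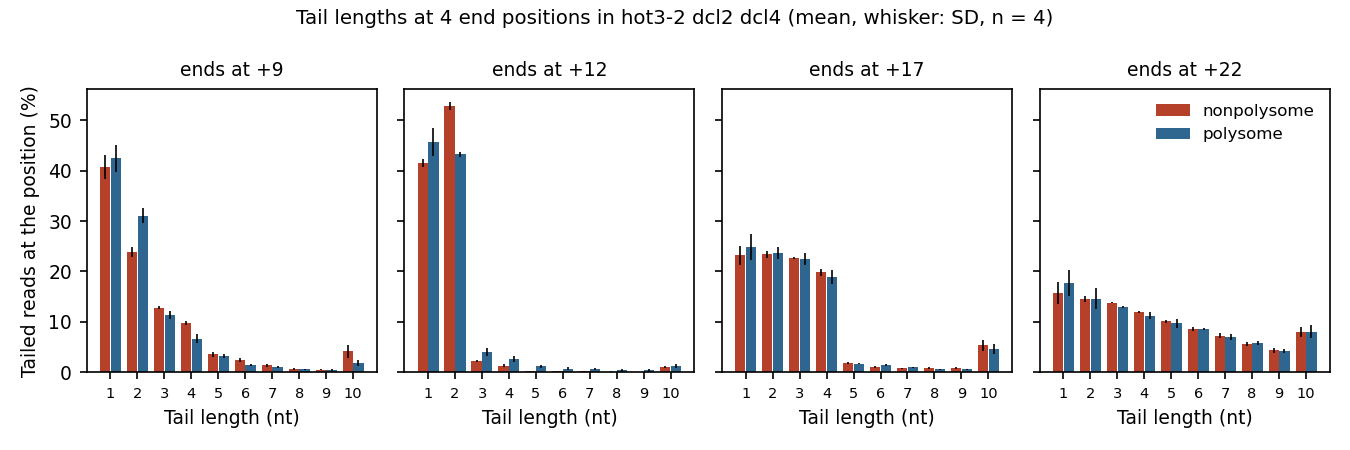
Tail lengths of 1 to 10 nt as a percentage of tailed reads at ends +9, +12, +17 and +22, in nonpolysome (red) and polysome (blue), as means with SD over 4 libraries. The fractions differ by a few percentage points within an end (tails of 2 nt at +12 are 52.8% in nonpolysome and 43.2% in polysome), while the ends differ from each other in shape.

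Mature 18S rRNA itself was almost never counted as tailed, although a U added at the D site would be counted as an untailed end at +1. Tailed D-site reads were 0.0711%, 0.0583%, 0.0688% and 0.0656% of D in nonpolysome libraries 1 to 4 and 0.0189%, 0.0211%, 0.0174% and 0.0214% in polysome libraries (log2 1.74, exact permutation p = 0.0286, Benjamini-Hochberg 0.0286). Most carried 1 nt, at 0.0425% ± 0.00625 of D in nonpolysome and 0.0125% ± 0.00196 in polysome (log2 1.76 ± 0.22 SE). The class of 10 nt held 25.1% of tailed D-site reads in nonpolysome and 21.8% in polysome. In another set of tailed rows the fractions differed by less than the spread between libraries. Ends at -1 with 1 nt were 0.304%, 0.324%, 0.246% and 0.282% of D in nonpolysome libraries 1 to 4 and 0.302%, 0.310%, 0.249% and 0.290% in polysome libraries (log2 0.01 ± 0.16 SE). Ends at -2 with 2 nt were 0.147% ± 0.0313 in nonpolysome and 0.149% ± 0.0319 in polysome (log2 -0.02 ± 0.21 SE). In such rows the templated end and the tail add up to the length of mature 18S rRNA. Of the 5 tested rows of that summed length, 4 were among the 14 not called, and the exception was -3 with 3 nt (log2 2.09). The other rows not called included tails of 2 nt at +9 (0.0726% ± 0.0140 in nonpolysome and 0.0539% ± 0.0116 in polysome, log2 0.43, adjusted p = 0.0817).

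The fraction difference was then set beside that of the other genotypes, to see where the genotypes differ. The effect on pre-18S, taken as log2 of nonpolysome over polysome, was 2.43 ± 0.403 in the combined mutant and 2.29 ± 0.313 in hot3-2 (difference 0.14, exact permutation p = 0.514, Benjamini-Hochberg 0.514 over 3 tests). Against dcl2 dcl4 (1.37 ± 0.263) it was larger by 1.06, and against WT (1.197 ± 0.484) it was larger by 1.24, each with an exact permutation p of 0.0286 and an adjusted value of 0.0429. These comparisons pair fractions of the same number within a genotype and do not match genotypes by number. In every genotype replicates 1 and 3 had larger effects than 2 and 4, and this split is part of the spread tested against. For replicates 1 to 4 the effects were 2.78, 2.10, 2.79 and 2.07 in the combined mutant and 2.54, 2.02, 2.59 and 2.03 in hot3-2. The combined mutant was thus above hot3-2 at each number, a matched difference that was not tested. The D-adjacent ends weigh on them: with A1 and A2 positions alone the differences were 0.06 against dcl2 dcl4 (exact permutation p = 0.771) and 0.26 against WT (exact permutation p = 0.629), whereas the +3 to +22 window gave 0.32 and 0.53 in the same order (exact permutation p = 0.257 and p = 0.286).

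Against hot3-2, none of 271 rows had a different fraction effect (0.00%) by edgeR's quasi-likelihood test, and 4 had an unadjusted p under 0.05. DESeq2 also called 0. The untailed log2 fold changes of these genotypes were close at +4 (2.24 in the combined mutant and 2.14 in hot3-2), +9 (1.66 and 1.63) and +12 (3.23 and 3.09). At each end from -5 to -1 the combined mutant had the lower value, as at -3 (1.16 ± 0.21 SE against 1.91 ± 0.38). At each end from +10 to +24 it had the higher value, as at +23 (3.06 ± 0.25 SE against 2.62 ± 0.25). None of these single differences was called. A p that misses the threshold does not show that the genotypes act alike.

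Against dcl2 dcl4, 13 of 254 rows differed (5.12%), 8 with a larger effect in the combined mutant (3.15%) and 5 with a smaller one (1.97%), and with the replicate number as a block 20 rows did. The largest effect on well-covered untailed ends was at +5, where the log2 fold change was 2.78 in the combined mutant and 0.19 in dcl2 dcl4 (difference 2.59 ± 0.26 SE, adjusted p = 5.5e-07). At +5 the combined mutant had 0.158% ± 0.0227 in nonpolysome and 0.0230% ± 0.00366 in polysome, and dcl2 dcl4 had 0.00945% ± 0.00137 and 0.00826% ± 0.00105 in the same order. The effect at +4 was larger too, by 1.49 ± 0.30 SE. So were those of tails of 1 nt at +18 (3.71 ± 0.73 SE, with 8 and 12 reads in dcl2 dcl4) and of 2 nt at +21 (3.25 ± 0.80 SE, with 44 and 19 reads). The row at +18 entered the test only through the nonpolysome libraries of the combined mutant, where it was high, so its call is no support for a difference. The smaller effects were tails at +6, +7 and +9. Tails of 4 nt at +7 had a log2 fold change of 0.74 in the combined mutant and 3.13 in dcl2 dcl4, and their polysome level was 0.0151% ± 0.00281 of D in the combined mutant and 2.9e-04% ± 9.8e-05 in dcl2 dcl4. Tails of 7 nt at +7 (-3.38), 3 nt at +6 (-2.43) and 2 nt at +9 (-1.51) also had a smaller effect, with at most 38 polysome reads in dcl2 dcl4. Against WT 5 of 254 rows differed (1.97%), 3 with a larger effect (1.18%) and 2 with a smaller one (0.787%). The larger ones were untailed ends at +5 (2.13 ± 0.30 SE, adjusted p = 1.6e-04), +6 (1.50 ± 0.29 SE) and +15 (1.30 ± 0.33 SE). The call at +15 was lost with the replicate block (adjusted p = 0.118) and in 7 of 8 fits that left out 1 library of the combined mutant, the exception being the fit without nonpolysome 2. The smaller ones were tails of 3 nt (-1.56 ± 0.36 SE) and 4 nt (-1.96 ± 0.46 SE) at +7, each lost in 4 of 8 such fits. The 4 libraries concerned were nonpolysome 1 and 4 and polysome 3 and 4. The balance of directions depended on scaling: with TMM 3 of 37 rows called against dcl2 dcl4 and 3 of 27 called against WT had the larger effect in the combined mutant.

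**Figure D5:**
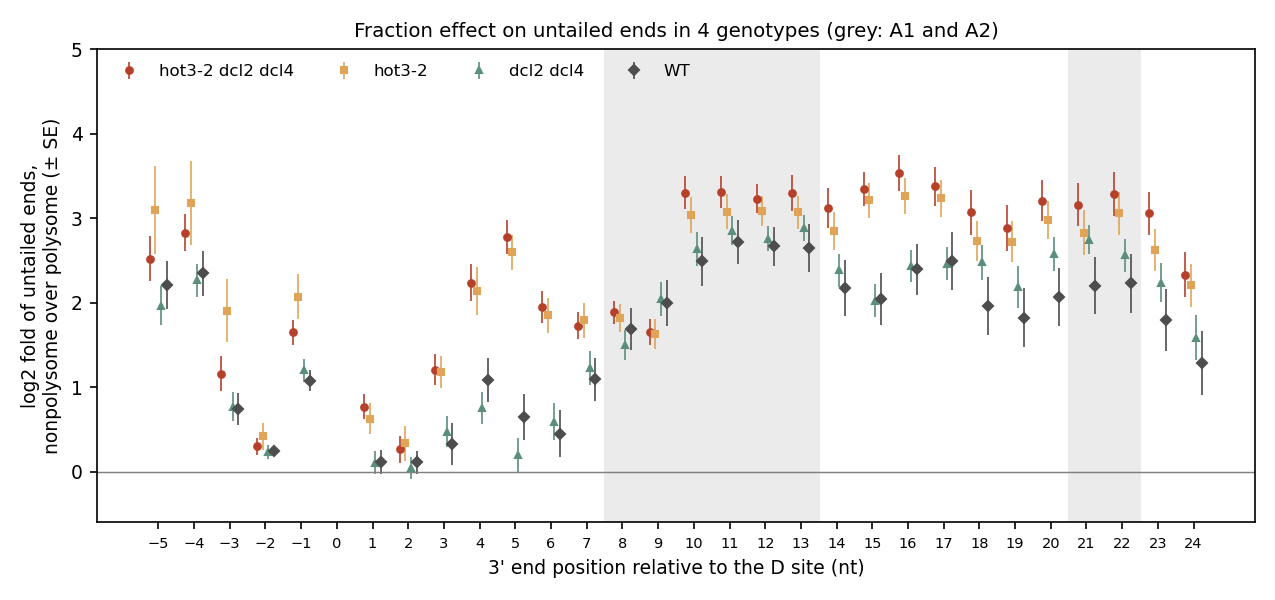
Log2 fold change of untailed ends, nonpolysome over polysome (± SE, edgeR), at each position from the D site in hot3-2 dcl2 dcl4, hot3-2, dcl2 dcl4 and WT. The combined mutant and hot3-2 lie close to each other from +1 to +22, and at +5 they are at 2.78 and 2.59, against 0.19 in dcl2 dcl4 and 0.65 in WT. The combined mutant lies below hot3-2 from -5 to -1 and above it from +10 to +24.

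Finally, the outline of A1 and the tailing near +8 were compared between genotypes, both chosen after their values were seen. The step from +8 and +9 to +10 to +13, as log2 of their untailed ratio in nonpolysome over polysome, was 1.47 ± 0.268 in the combined mutant, 1.33 ± 0.0774 in hot3-2, 1.07 ± 0.263 in dcl2 dcl4 and 0.82 ± 0.470 in WT, and no difference passed (exact permutation p from 0.0857 to 0.429). The tailed to untailed ratio at +7 to +9 was lower in nonpolysome by 0.98 ± 0.0539 (log2) in the combined mutant and by 0.93 ± 0.0370 in hot3-2, whereas the effect was 0.15 ± 0.0495 in dcl2 dcl4 and 0.05 ± 0.179 in WT. The combined mutant did not overlap dcl2 dcl4 or WT here (exact permutation p = 0.0286 for both, Benjamini-Hochberg 0.0857 over 6 tests).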

How the data were processed

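The deposited values were raw counts of reads for every pair of 3′ end position and tail length, 1 file for each library. Reads were trimmed of the 18S 5′ end, mapped by the authors to their own 45S rDNA reference with STAR (2.7.10b and cutadapt 4.2 in the submitters' processing notes, while the methods name another STAR release) with 1 reported place per read, and counted with an in-house script. Reads from different rDNA copies were therefore not told apart. PCR was run without molecular identifiers.

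Rows were kept where 4 or more libraries had 10 or more counts, and were tested with edgeR 4.0.16 (glmQLFit and glmQLFTest in R 4.3.3) across all rows, the untailed D-site count serving as library size, and called at a Benjamini-Hochberg adjusted p under 0.05. Only the compared groups entered a fit, and differences between genotypes were interaction terms. The script was tested on simulated data. Ratios and shares were compared on log2 or percent values with exact permutation tests, two-sided, which have 70 arrangements here and a smallest p of 0.0286. Alternatives were other scalings, DESeq2 1.42.0, no filter, other denominators and windows, the replicate number as a block, and leaving out each library.

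The labels do not say that replicate numbers pair fractions, but over 169 rows the deviations of same-numbered nonpolysome and polysome libraries correlated at 0.55 to 0.64, and all 4 nonpolysome libraries were closest to their own number, so the numbers were taken to pair them. The rows named are ends +1, +2, A1 and A2, their 1 nt tails and that of D, the 8 tailed and 6 untailed called rows with the largest fold change whose libraries did not overlap, and 4 called rows a direction for each genotype comparison. Any other row in the text was picked once its values were known. The positions, end classes and tests were chosen with earlier results of these data known.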

Additional observations from a re-analysis of the deposited data

Results flagged for a closer look

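A library far from the other 3 of its group appeared in 3 of the 90 groups of 4 values examined, and chance alone gives such a gap in about 1 in 20 groups. The ratio of A1 to A2 was 4.05 in nonpolysome replicate 4, against 3.55 to 3.63 in the other nonpolysome libraries. Tails of 9 nt at +21 were 0.00402% of D in nonpolysome replicate 3, against 6.9e-04% to 9.6e-04% in the others. Tails of 6 nt at +21 were 3.5e-04% of D in polysome replicate 4, against 9.6e-05% to 1.1e-04% in the others.

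The fraction effect differed between genotypes, by a test of the difference itself, for pre-18S against dcl2 dcl4 (log2 1.06) and against WT (log2 1.24). Among single rows tested against dcl2 dcl4 with edgeR, the effect in the combined mutant was larger at +18 with 1 nt (3.71), +21 with 2 nt (3.25), +5 untailed (2.59) and +4 untailed (1.49). The row at +18 had 8 and 12 reads in dcl2 dcl4 and entered the test only through the combined mutant's nonpolysome libraries. The effect was smaller at +7 with 7 nt (-3.38), +6 with 3 nt (-2.43), +7 with 4 nt (-2.39) and +9 with 2 nt (-1.51). Against WT it was larger at +5 (2.13), +6 (1.50) and +15 (1.30), all untailed, and smaller at +7 with 4 nt (-1.96) and 3 nt (-1.56).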

How the results depend on the processing

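TMM and the size factors of DESeq2 were computed without the D-site row, which centres the other rows on each other. Signs under them are relative to the other rows, and rows near the D site turned negative. With all counted reads as library size, no named row reversed. With TMM and with the size factors of DESeq2, log2 fold changes turned to -1.92 and -1.89 at +1, -2.43 and -2.39 at +2, -0.83 and -0.79 at +8, and -1.06 and -1.03 at +9. With tails of 1 nt they turned to -1.87 and -1.84 at +8, -1.96 and -1.93 at +9, -0.25 and -0.22 at +10, -0.36 and -0.34 at +13, and -0.98 and -0.95 at D. These scalings moved the median row by -2.72 and -2.70. Rows called numbered 170 and 171, against 216 with all counted reads as library size, 28 of 29 with untailed positions alone and 143 with replicates 2 and 4 alone (142 higher).

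Replicates 1 and 3, and replicates 2 and 4, gave log2 2.78 and 2.08 for pre-18S, 2.96 and 2.38 for A1, 3.87 and 2.57 for A2, 1.95 and 1.54 for tailed D, and -0.90 and -0.18 for the A1 to A2 ratio. The tailed share of D differed by 0.0518 and 0.0407 percentage points. The D-adjacent ratio fell to log2 0.26 with all reads as denominator, the tailed share of A1 to -1.10 percentage points with tails of 2 nt or more, and the A1 mean tail length difference passed at 0.15 nt without tails of 10 nt. Pre-18S effects were larger than in dcl2 dcl4 by 0.32 with ends +3 to +22 and 0.056 with A1 and A2 alone, and than in WT by 0.53 and 0.26.

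With the replicate block, which uses the pairing, 239 rows were called between fractions, 20 differed from dcl2 dcl4 (13 larger) and 7 from WT. Beside the count against dcl2 dcl4 and the loss of +15 against WT, it changed no other call among the rows and row counts named. For ratios and shares between fractions, pairing leaves the mean difference as it is. With 4 pairs, the smallest p of an exact sign-flip test is 0.125, so no ratio or share could pass 0.05 in it. Their exact permutation p of 0.0286 takes no account of the pairing.

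Rows differing from dcl2 dcl4 numbered 37 with TMM (3 larger), 45 with DESeq2's factors (5 larger) and 25 with DESeq2 and D-site factors (17 larger). From WT they numbered 27 (3 larger), 42 (3 larger) and 15 (12 larger). Leaving out 1 library gave 186 to 231 rows called, 12 to 29 rows against dcl2 dcl4 (29 without nonpolysome 2) and 2 to 9 against WT (9 without nonpolysome 2, and 2 without nonpolysome 1 or 4 or polysome 3 or 4). No ratio or share moved by more than its spread when 1 library was left out. With 4 against 3 libraries the smallest exact p is 0.0571.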
